A study of Homo sapiens with 6 samples.

Results

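Among 181135 sites of open chromatin listed by the authors for K562 cells, 2035 (1.12%) overlapped a called peak in both libraries before treatment and in both libraries after 72 h of treatment, but in neither library at 6 h. These 2035 are called the dipping sites here. They were chosen by the authors' peak calls in all 6 libraries, and an overlap of 1 base was enough to count. K562 is a human leukaemia cell line, labelled wild type throughout, and all groups came from this 1 line. Cells received 25 nM phorbol 12-myristate 13-acetate (PMA) for 0, 6 or 72 h, with 2 libraries at each time, and open chromatin was measured by ATAC-seq with the Omni-ATAC preparation. The 0 h libraries were the controls, and no vehicle-treated series at 6 or 72 h was analysed here. The labels do not say whether replicates came from separate cultures, so p-values measure the spread between these libraries, which may be technical.

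ATAC-seq uses a transposase that cuts and tags DNA where nucleosomes and bound proteins leave it exposed, so reads gather over active promoters and enhancers. PMA mimics diacylglycerol and switches on protein kinase C, which feeds the ERK pathway and its early response genes. K562 cells carry an erythroid programme driven by GATA1 and TAL1, and PMA moves them towards a megakaryocyte-like state. A peak is a call by a program, and it depends on how deeply a library was sequenced as well as on how open the site was.

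Depth was uneven at the time that defines the sites. Counts over all sites summed to 17669446 and 24470037 in replicates 1 and 2 at 0 h, whereas at 6 h they came to 12258890 and 33634403. At 72 h they came to 30934990 and 35548737, so 6 h replicate 1 was the shallowest library of the 6. Of the 5486 sites with peaks in all 0 h and 72 h libraries and in only 1 of the 6 h libraries, 5111 had that peak in the deeper 6 h replicate 2 and 375 in replicate 1. Counts were therefore compared both as deposited and after random thinning of every library to the total of 6 h replicate 1. In bulk samples, fewer cells with a site open and a less open site in each cell cannot be told apart.

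Most dipping sites lay away from promoters, and RefSeq promoter windows (GRCh38.p14) overlapped only 71 of them. The upstream parts of 4 such windows are printed to show promoter DNA that lies wholly or partly inside a dipping site. PRSS2 came from the rule for sites at gene ends described below, whereas GATA1, CYB5R3 and BTN3A3 were chosen after their values were seen. Each is 250 bases ending at the base before the annotated gene start, 5′ to 3′ on the gene's strand. Capitals mark matches to the GATA motif AGATAA, the NFY motif CCAAT or the SP/KLF motif GGGCGG on either strand. The windows lie at chr7:142770720-142770969 (plus strand) for PRSS2, chr22:42646990-42647239 (minus strand) for CYB5R3, chr6:26440254-26440503 (plus strand) for BTN3A3 and chrX:48786340-48786589 (plus strand) for GATA1. All 250 bases fell inside the dipping site for the first 3 genes, and the first 79 did for GATA1, which leaves its capitals outside the site.
PRSS2: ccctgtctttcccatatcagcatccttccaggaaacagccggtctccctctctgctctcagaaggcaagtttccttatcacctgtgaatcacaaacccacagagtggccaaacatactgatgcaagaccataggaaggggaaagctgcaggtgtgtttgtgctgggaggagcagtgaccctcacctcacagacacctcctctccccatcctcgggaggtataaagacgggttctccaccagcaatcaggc
CYB5R3: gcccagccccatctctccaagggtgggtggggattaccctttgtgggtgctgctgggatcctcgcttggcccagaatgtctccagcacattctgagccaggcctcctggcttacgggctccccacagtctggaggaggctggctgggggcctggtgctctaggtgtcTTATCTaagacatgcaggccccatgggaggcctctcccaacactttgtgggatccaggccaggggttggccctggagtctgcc
BTN3A3: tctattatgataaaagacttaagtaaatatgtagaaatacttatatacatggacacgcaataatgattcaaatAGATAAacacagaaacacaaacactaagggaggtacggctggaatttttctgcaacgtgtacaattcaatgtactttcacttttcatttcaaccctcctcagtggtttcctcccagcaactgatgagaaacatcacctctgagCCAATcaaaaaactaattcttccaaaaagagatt
GATA1: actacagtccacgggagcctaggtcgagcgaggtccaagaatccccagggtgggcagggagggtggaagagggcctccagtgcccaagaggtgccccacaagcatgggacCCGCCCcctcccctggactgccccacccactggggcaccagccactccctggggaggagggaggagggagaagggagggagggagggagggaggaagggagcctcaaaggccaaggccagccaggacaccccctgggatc
The CYB5R3 and BTN3A3 windows were picked because they hold the GATA letters. Their 1 match each, on opposite strands, was therefore set by the choice. A match is a description of the letters and not a bound site.

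The dipping sites were lower at 6 h than before treatment and intermediate at 72 h. Their median level, in CPM (counts scaled to a common library size, after TMM scaling), was 4.74 and 4.11 in the 0 h libraries, 1.96 and 1.58 at 6 h, then 2.49 and 2.43 at 72 h. Both 6 h medians lay below the other 4, and both 72 h medians lay below both 0 h medians. The median over all sites was 1.36 and 1.39 CPM at 0 h, 1.79 and 1.71 at 6 h, then 2.23 and 2.22 at 72 h, so the dipping sites were above the typical site at 0 h. As a share of all counts in sites, the dipping sites held 1.09% and 0.953% at 0 h, 0.446% and 0.394% at 6 h, then 0.793% and 0.755% at 72 h. Since an absent 6 h peak chose the sites, these levels describe the choice and are no evidence for it. Sites with a peak in 1 of the 6 h libraries had medians of 5.13 and 5.12 CPM at 0 h, 2.90 and 3.13 at 6 h, then 3.11 and 3.09 at 72 h, so their 72 h medians stayed near the 6 h ones. The 35800 sites with peaks in all 6 libraries were stronger, at 13.2 and 13.5 CPM at 0 h, 12 and 12.6 at 6 h, then 8.78 and 9.04 at 72 h.

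**Figure D1:**
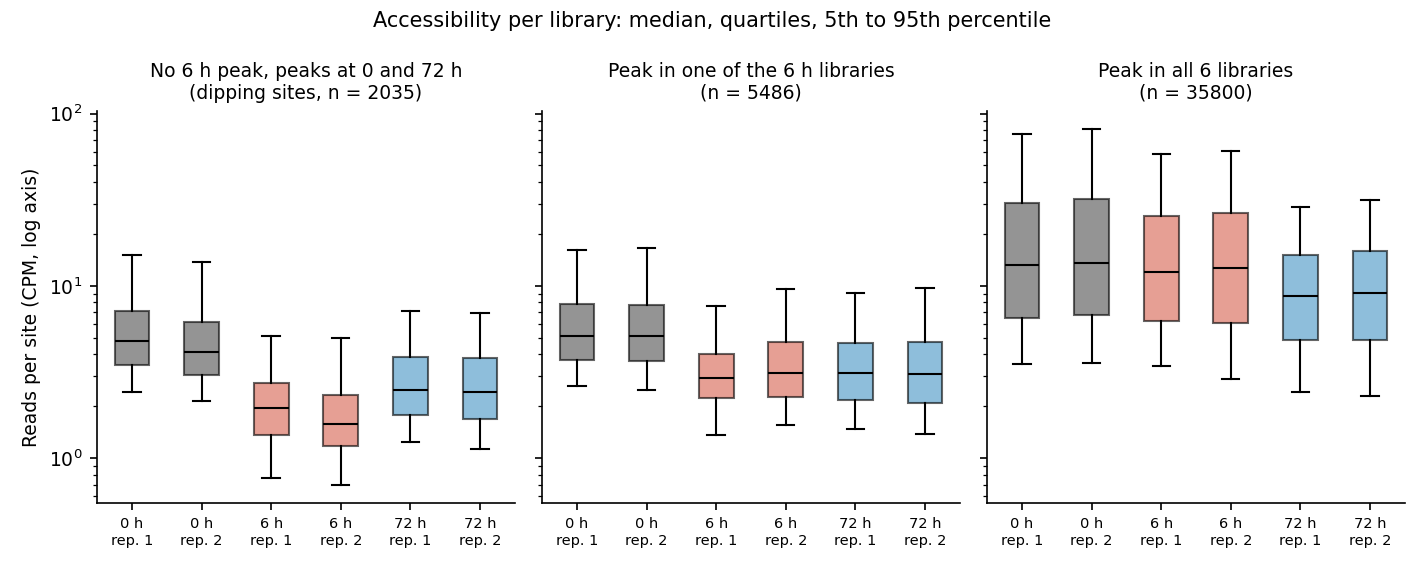
Reads per site (CPM, log axis) in each of the 6 libraries, for dipping sites, sites with a peak in 1 of the 6 h libraries and sites with peaks in all 6 libraries. Boxes give the quartiles with the median as a line, and whiskers the 5th to 95th percentile. The dipping sites are lowest at 6 h (medians 1.96 and 1.58) and reach 2.49 and 2.43 at 72 h.

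Levels were compared with edgeR's quasi-likelihood test across 177759 sites, with a call at an adjusted p under 0.05, and 2034 of the dipping sites entered that test. Of these, 1666 were called lower at 6 h than at 0 h (81.9% of them, against 16.8% of all tested sites), and 652 rose from 6 h to 72 h (32.1%, against 22.1%). A site was called in both when it passed both tests, and 593 dipping sites did so (29.2%, against 1.92% of all tested sites). The peak calls that chose the sites came from the same libraries, so these shares are descriptive. The median log2 fold change of the dipping sites was -1.36 from 0 h to 6 h and 0.47 from 6 h to 72 h, beside 0.05 and 0.03 over all tested sites. The later median was 0.83 under total counts (all tested sites 0.39), and 1.14 with TMM factors from shared peaks (all tested sites 0.70), where 1016 and 1421 dipping sites were called higher. The size of a dip was taken as the log2 level at 6 h minus the mean of the log2 levels at 0 h and 72 h. Its median was -0.93 over the dipping sites and 0.07 over all tested sites, and it was below 0 at 1995 of the 2034 (98.1%) and at 46.0% of all. A dip below 0 does not need a rise after 6 h. The log2 change from 6 h to 72 h was above 0 at 1581 of the 2034 (77.7%) and at 50.9% of all. In 1092 of the dipping sites both 6 h libraries lay below the other 4 (53.7%, against 8.22% of all tested sites). The count called in both was 324 without 6 h replicate 2 and 378 without 72 h replicate 2, and 1009 when TMM factors came only from sites with peaks in all 6 libraries.

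With TMM over all sites, the return was partial at the median site. Among the 593 sites called in both, the median change was -1.71 from 0 h to 6 h and 1.24 from 6 h to 72 h on the log2 scale, and the median site regained 74.6% of its log2 fall. A called rise was part of the choice of these 593, so that share describes them alone. The other tested dipping sites had median changes of -1.23 and 0.21. Of the 593, 215 were called lower at 72 h than at 0 h, 27 were called higher, and 351 were not called in either direction. A further 1073 dipping sites were called lower at 6 h but not higher at 72 h than at 6 h, and 941 of these were also called lower at 72 h than at 0 h. Another 59 passed only the test of the later rise, and 309 passed neither test. A missing call does not show that a level stayed the same.

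The level at 72 h relative to 0 h turned on the scaling. With TMM over all sites, 1270 dipping sites were called lower at 72 h than at 0 h (62.4%, against 29.2% of all tested sites) and 56 were called higher (2.75%, against 38.2%). The median log2 change was -0.89 in the dipping sites and 0.29 over all tested sites. With TMM factors taken only from sites with peaks in all 6 libraries, 309 were called lower (15.2%, against 10.97% of all tested sites). Higher calls numbered 408 (20.1%, against 57.9%). Under that scaling the dipping sites had a median of 0.07 and all tested sites a median of 1.26. Under total counts the medians were -0.40 and 0.79, under DESeq2 size factors in edgeR -1.08 and 0.11, and under loess offsets -1.33 and -0.04. In each of these 5 scalings the median of the dipping sites was below that of all tested sites. With TMM over all sites, 59.9% of sites with a peak in 1 of the 6 h libraries were called lower (median -0.82). So were 67.8% of sites with peaks in all 6 libraries (median -0.95). Under that scaling the fall by 72 h was thus not particular to the dipping sites. Under loess offsets these sets had medians of -1.09 and -0.34. The median dip of the dipping sites ran from -0.93 to -1.12 over the same 5 scalings, and 396 sites were called in both under every one.

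**Figure D2:**
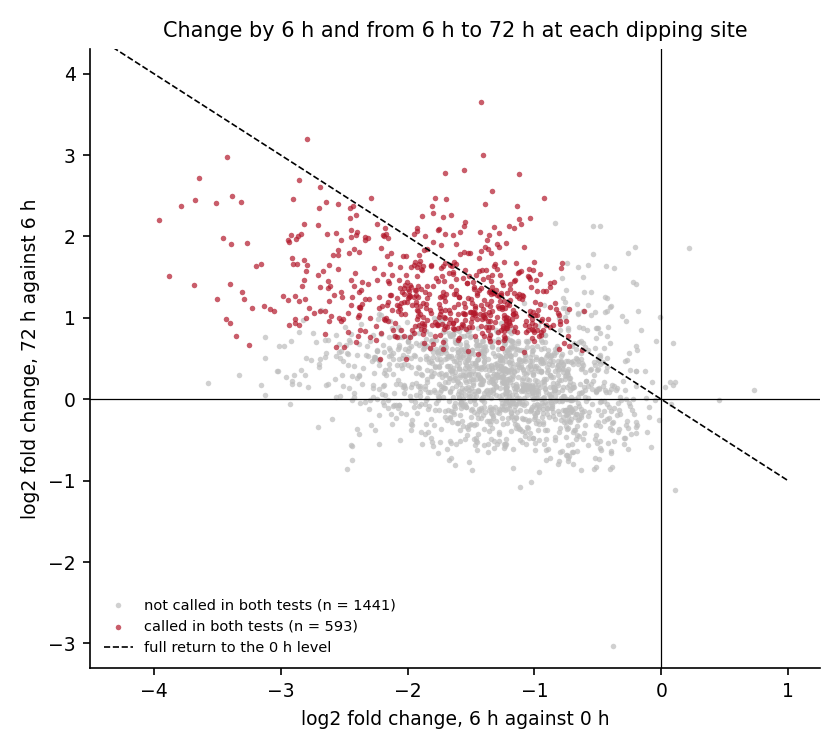
Log2 fold change from 0 h to 6 h (x axis) against that from 6 h to 72 h (y axis) for 2034 dipping sites, with the 593 called in both tests in red. The dashed line marks a full return to the 0 h level, and most red points lie between it and the horizontal line at 0, with a median of -1.71 and 1.24.

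At matched totals of reads in sites, the dipping sites had fewer reads at 6 h than at 0 h and 72 h. Thinning matched only the counts inside sites, since reads outside them were not analysed here. Thinned counts were drawn from the same libraries whose peak calls chose the sites. The shares below, and the overlap with calls on deposited counts, are therefore descriptive. After every library was thinned to about 12258890 counts, the median count per dipping site was 51 and 43 in the 0 h libraries, 23 and 18 at 6 h, and then 38 and 36 at 72 h. Of the 2032 dipping sites that passed the filter at this depth, 1548 were called lower at 6 h than at 0 h (76.2%, against 17.4% of the 155600 sites tested) and 549 higher at 72 h than at 6 h (27.0%, against 21.4%). In all, 478 were called in both (23.5%, against 1.74%). The median dip was -0.92, beside 0.08 over all tested sites. Taken without TMM scaling, both thinned 6 h counts lay below the other 4 at 1293 of the 2034 dipping sites (63.6%, against 8.27% of the 177759 sites). Thinned and deposited counts shared 452 sites called in both, which is 76.2% of the 593 and 94.6% of the 478. Between 0 h and 72 h, thinned counts called 51 dipping sites higher at the later time (2.51%, against 38.4%) and 1136 lower (55.9%, against 29.0%). On thinned counts DESeq2 called 286 in both (14.1%, against 0.85% of all tested sites). The median thinned dip was -0.95 without 72 h replicate 2, -0.94 without 72 h replicate 1 and -0.85 without 6 h replicate 2. Fewer dipping sites were called in both in each of these fits with a library left out.

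**Figure D3:**
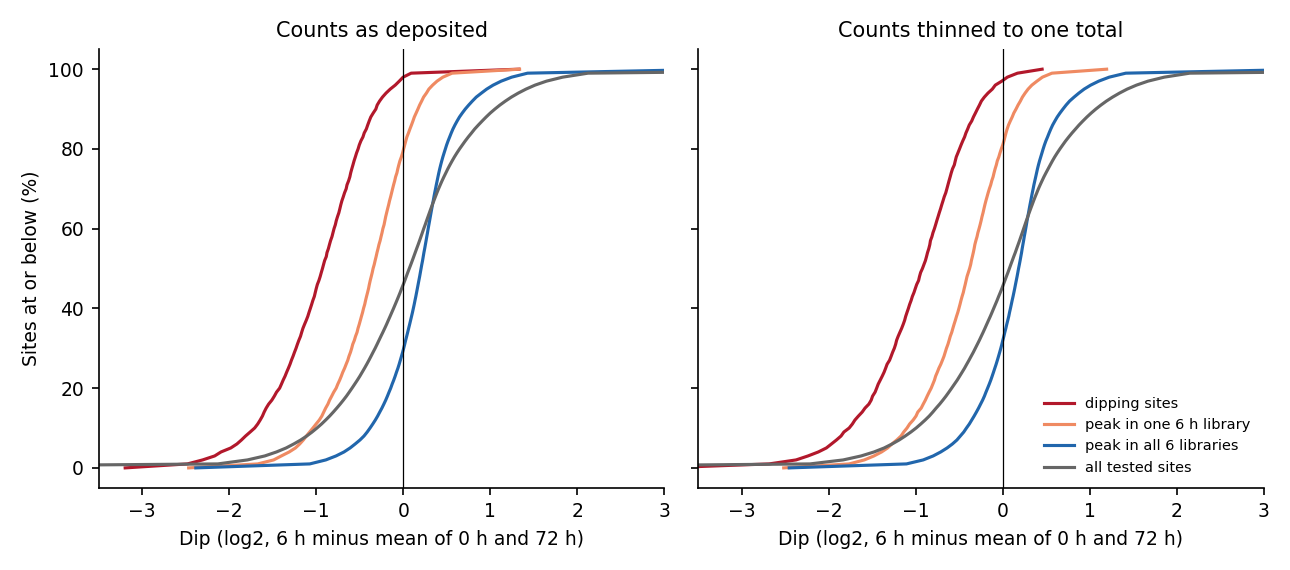
Share of sites (y axis, %) at or below each dip size (x axis, log2), for dipping sites, sites with a peak in 1 of the 6 h libraries, sites with peaks in all 6 libraries and all tested sites. The left panel uses deposited counts and the right panel counts thinned to 1 total, and the dipping sites' curve has its median at -0.93 and -0.92.

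Many dipping sites lay near the count at which peaks were called at 50% of sites. In 6 h replicate 1, sites with 39 reads were the lowest at which at least 50% overlapped a peak of that library, and 91 reads were needed for 90%. At the thinned depth, 71.0% and 58.7% of the dipping sites reached 39 reads in the 0 h libraries, 16.0% and 13.3% at 6 h, and 49.3% and 45.7% at 72 h. All 4 of the 0 h and 72 h libraries reached it at 580 sites (28.5%), both 6 h libraries stayed under it at 1654, and both held together at 283 (13.9%). At 322 sites none of the 4 libraries at 0 h or 72 h reached it. The peak caller was not run again on thinned reads.

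**Figure D4:**
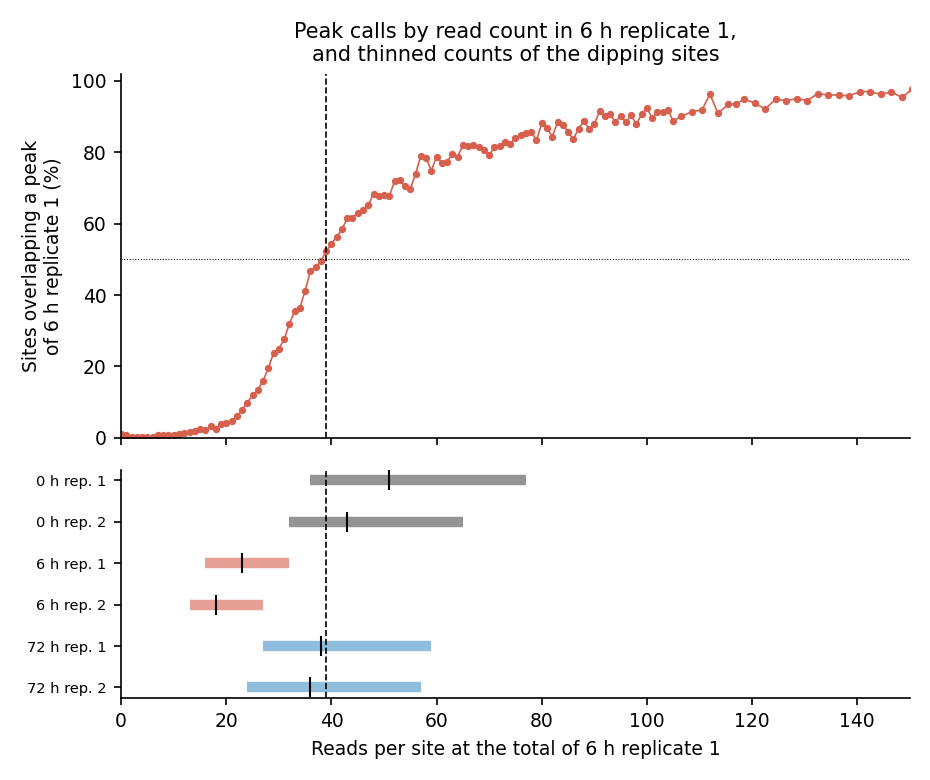
Top, share of sites overlapping a 6 h replicate 1 peak (y axis, %) by their read count in that library (x axis), where the dashed line marks 39 reads. Bottom, counts of the dipping sites thinned to the same total (bars from the lower to the upper quartile, median as a line), with medians of 51 and 43 at 0 h, 23 and 18 at 6 h, then 38 and 36 at 72 h.

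Sites chosen in 1 replicate were then read in the libraries of the other, whose peak calls took no part in the choice. Only tested sites were kept, and the low-count filter behind that used all 6 libraries. When the rule was applied to the peak lists of replicate 1 alone it chose 10197 tested sites. In replicate 2 the 6 h level was below both the 0 h and the 72 h level at 44.6% of them. The same was true of 21.3% of all tested sites and of 12.3% of sites with peaks at all 3 times in replicate 1. The median dip of the chosen sites in replicate 2 was -0.32. Their median levels there were 4.11 CPM at 0 h, 2.47 at 6 h and 2.57 at 72 h. Chosen in replicate 2, 5237 tested sites had the 6 h level lowest in replicate 1 at 51.8%. The share was 22.7% over all tested sites and 15.0% over sites with peaks at all 3 times. The chosen sites had a median dip of -0.43 in replicate 1, with median levels of 3.18, 1.79 and 2.02 CPM. With TMM over all sites, the 72 h median thus lay near the 6 h one in both directions. In the 6 h library left out, no peak was called at 37.4% of the sites chosen in replicate 1, below the 51.4% of all tested sites. Of those chosen in replicate 2, 87.7% had no peak in the shallower replicate 1, against 66.6% of all tested sites. With 1 library at each time there is no test of these shares. Under total counts, an alternative added after seeing the data, they were 56.6% and 63.8%, beside 24.6% and 26.3% of all tested sites. Median levels under total counts were 3.51, 2.32 and 3.07 CPM in replicate 2, and 2.77, 1.71 and 2.52 in replicate 1.

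The 12 deepest dips were taken among sites called in both that had at least 1 CPM in every 0 h and 72 h library and both 6 h libraries below all others. Their dips ran from -3.20 to -2.69. Over the 12, levels ran from 2.77 to 22.4 CPM at 0 h, from 0 to 1.61 at 6 h and from 1.11 to 11.4 at 72 h, and all 12 were also called in both on thinned counts. At 72 h against 0 h with TMM over all sites, 9 were called lower and 3 were not called. No protein-coding gene began or ended within 1000 bases of them, and 6 were inside a gene.

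The deepest was peak78026 at chr18:31821384-31822339, 6858 bases from the nearest end of TRAPPC8, which encodes a subunit of a vesicle tethering complex. It had 16.5 and 13.8 CPM at 0 h, 1.02 and 1.61 at 6 h, then 10.7 and 11.4 at 72 h. The 6 h libraries were far below the other 4, and both 72 h libraries were somewhat below both at 0 h. It fell by 3.42 (SE 0.265) on the log2 scale by 6 h (edgeR adjusted p = 2.1e-09) and rose by 2.97 (SE 0.261) from 6 h to 72 h (edgeR adjusted p = 1.1e-07). The difference between 72 h and 0 h was -0.45, which was not called (edgeR adjusted p = 0.063).

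A site inside PLEKHM3, peak98392 at chr2:207959910-207960733, had 6.04 and 2.77 CPM at 0 h, 0.597 and 0.633 at 6 h, then 6.14 and 5.31 at 72 h. Its 0 h and 72 h ranges overlapped, while both 6 h libraries were well below all 4. The change was -2.79 (SE 0.404) by 6 h and 3.19 (SE 0.386) from 6 h to 72 h, with edgeR adjusted p of 9.9e-06 and 2.1e-06. Near FGFR1, a fibroblast growth factor receptor, peak163391 at chr8:38566999-38567587 had 3.18 and 3.06 CPM at 0 h, 0.256 and 0.506 at 6 h, then 2.41 and 3.16 at 72 h. Here too the 0 h and 72 h ranges overlapped, and the site lay 98364 bases from the gene's nearest end. The log2 change was -2.86 by 6 h and 2.70 back, with edgeR adjusted p of 1.2e-05 and 2.3e-05.

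With TMM over all sites, other sites among the 12 came back only in part. Inside RSAD2, which encodes the antiviral protein viperin, peak86415 at chr2:6880249-6880936 had 18.3 and 22.4 CPM at 0 h, 1.53 and 1.3 at 6 h, then 3.52 and 4.34 at 72 h. The 72 h libraries stood above the 6 h ones and far below the 0 h ones. It fell by 3.88 (SE 0.268) by 6 h and rose by 1.51 (SE 0.273) after it, with edgeR adjusted p of 5e-10 and 0.00015. Inside WWOX, a gene that spans a common fragile site, peak67185 at chr16:78428071-78428764 had 5.85 and 5.45 CPM at 0 h, 0.682 and 0.506 at 6 h, then 2.72 and 3.35 at 72 h. Inside TMEM182, peak92934 at chr2:102801242-102801818 had 3.57 and 2.77 CPM at 0 h, 0 and 0.411 at 6 h, then 1.11 and 1.16 at 72 h. Without 6 h replicate 2 only the library with 0 reads is left at 6 h, so no fold is given for that case. The site nearest CNTNAP3C, peak170320, lies among near-identical gene copies, where the assignment of reads is uncertain.

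**Figure D5:**
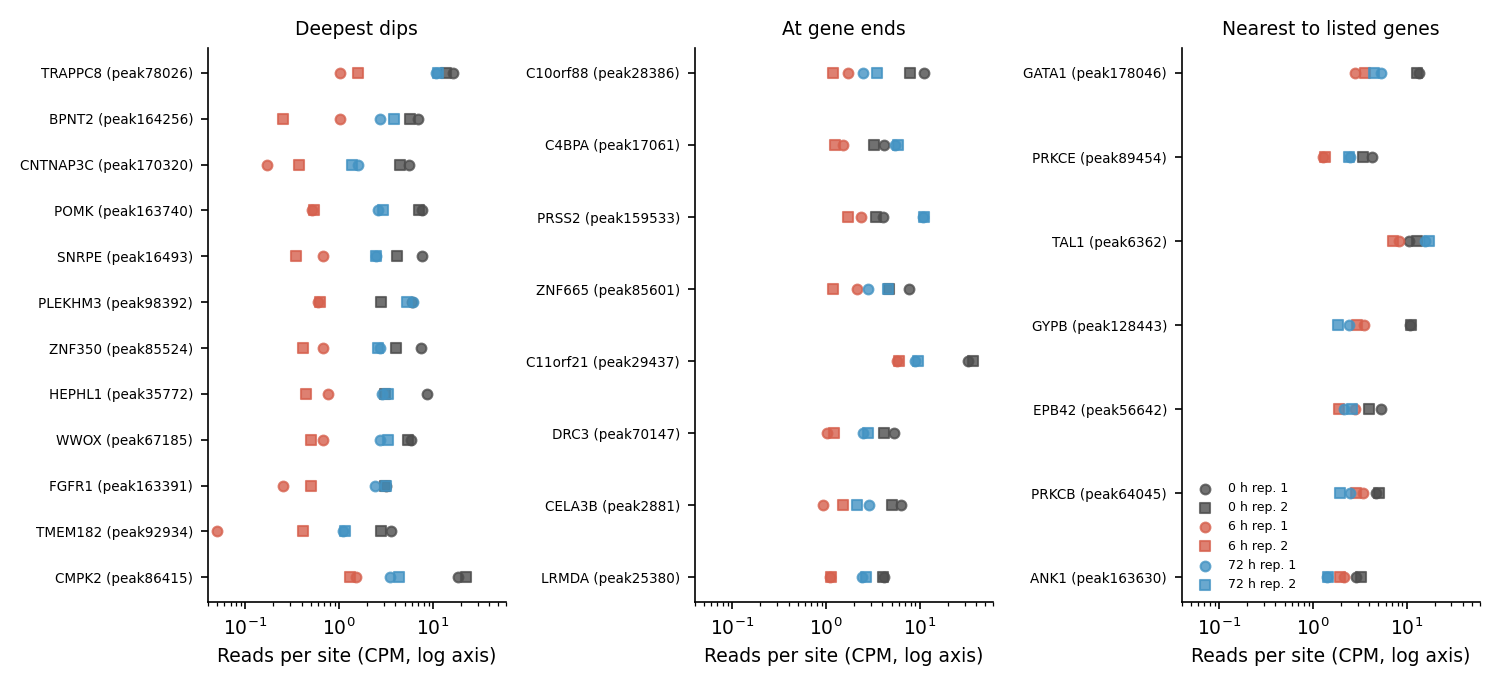
Reads per site (CPM, log axis) in each library at the 12 deepest dips, the 8 deepest within 1000 bases of a gene end and the sites nearest to GATA1, PRKCE, TAL1, GYPB, EPB42, PRKCB and ANK1, labelled by nearest gene end. A count of 0 (TMEM182, 6 h replicate 1) is drawn near the left edge. The 6 h points are leftmost in the first 2 panels, whereas in the third the 72 h points of GYPB, PRKCB and ANK1 lie left of the 6 h points.

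Of the sites called in both, 20 had an end of a coding gene within 1000 bases, and the 8 deepest had dips from -1.95 to -1.51. All 8 were also called in both on thinned counts, but a second random thinning lost the call at C10orf88, PRSS2 and CELA3B. Peak159533 at chr7:142770389-142771138 covers the start of PRSS2, a trypsinogen gene among near-identical copies, so its reads may be shared with them. It had 4.09 and 3.39 CPM at 0 h, 2.39 and 1.71 at 6 h, then 10.8 and 11.1 at 72 h. It fell by 0.92 (SE 0.287) and then rose by 2.47 (SE 0.266), with edgeR adjusted p of 0.014 and 6.5e-07, and ended above its 0 h level by 1.55 (edgeR adjusted p = 1.1e-05). Peak17061 at chr1:207145219-207146083, 247 bases from an end of C4BPA, which encodes a chain of a complement regulator, had 4.16 and 3.25 CPM, then 1.53 and 1.27, then 5.41 and 5.92. With TMM over all sites, this pair, PRSS2 and C4BPA, stood above its 0 h level at 72 h by the test. The other 6 stood below their 0 h levels.

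The strongest of these 8 at 0 h was peak29437 at chr11:2303382-2304165, inside TSPAN32, which encodes a tetraspanin of blood cells, and 242 bases from an end of C11orf21. It had 32.6 and 36.6 CPM at 0 h, 5.71 and 5.95 at 6 h, then 8.83 and 9.49 at 72 h. The replicates were close at every time, and the groups did not overlap. It fell by 2.57 (SE 0.192) and regained 0.65 (SE 0.189) on the log2 scale, with edgeR adjusted p of 1.3e-09 and 0.0087. Inside C10orf88, peak28386 had 11.1 and 7.94 CPM at 0 h, 1.71 and 1.2 at 6 h, then 2.51 and 3.52 at 72 h. The sites near ZNF665, DRC3, CELA3B and LRMDA had 0.938 to 2.13 CPM at 6 h.

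Few dipping sites had a gene of the lists as their nearest. Assignment to the nearest protein-coding gene end within 50000 bases gave 5 dipping sites of 162 sites (3.09%) to the erythroid list, 0 of 185 to the megakaryocyte list, 2 of 454 (0.441%) to the list of protein kinase C, ERK and immediate early genes, 1 of 368 (0.272%) to haematopoietic transcription factors and 0 of 97 to housekeeping genes, beside 1.12% of all sites. Of these 8 dipping sites, 1 at TAL1 and 1 at PRKCE were called in both, and none of the 5 erythroid ones was. The site near TAL1 (peak6362, chr1:47211747-47212378) had 10.5 and 13.0 CPM at 0 h, 8.36 and 7.21 at 6 h, then 15.5 and 17.3 at 72 h, so the 6 h libraries were lowest and the 72 h libraries highest. TAL1 encodes a factor that binds DNA with GATA1 in erythroid and megakaryocytic cells. The site fell by 0.61 (SE 0.208) and rose by 1.09 (SE 0.202), with edgeR adjusted p of 0.024 and 0.00019, but lost the call in both without 0 h replicate 2, without 6 h replicate 2, under total counts on deposited or thinned reads, and with TMM factors from the shared peaks alone. The site near PRKCE, which encodes a kinase of the protein kinase C family, had 4.29 and 3.39 CPM at 0 h, 1.28 and 1.36 at 6 h, then 2.49 and 2.45 at 72 h. It was called on deposited counts (edgeR adjusted p of 0.00091 and 0.031), but the call was lost in 8 of 17 alternative settings. These included loess offsets, DESeq2, leaving out either 6 h or either 72 h library, and the first of the 2 random thinnings.

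At GATA1, the main factor of the erythroid programme, peak178046 (chrX:48785611-48786418) ended 172 bases upstream of the gene start. It had 13.5 and 12.8 CPM at 0 h, 2.81 and 3.61 at 6 h, then 5.38 and 4.51 at 72 h. The groups did not overlap. It fell by 1.99 (SE 0.244; edgeR adjusted p = 1.1e-06), while the later difference of 0.59 (SE 0.243) missed the threshold (edgeR adjusted p = 0.056). It was called in both in 8 of 17 alternative settings. Sites at 4 further listed genes had no called rise after 6 h, and at ANK1 and PRKCB the difference between 0 h and 6 h was not called either (-0.62 and -0.67, edgeR adjusted p of 0.14 and 0.067). The log2 difference from 6 h to 72 h was -0.57 at GYPB, which encodes a glycophorin, 0.08 at EPB42 and -0.49 at ANK1, which encode proteins of the red cell membrane skeleton, and -0.49 at PRKCB, and edgeR called none of the 4. All 4 were called lower at 72 h than at 0 h with TMM over all sites. At GYPB the 6 libraries read 10.9 and 11.2 CPM, then 3.50 and 2.97, then 2.43 and 1.86, so it stood lowest at 72 h although its peak was absent only at 6 h.

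Within 50000 bases of a protein-coding gene end, 1402 dipping sites belonged to 1297 genes, of which 1200 had 1 such site, 89 had 2 and 8 had 3. Of the 89 genes with 2, none of the sites was called in both at 54, 1 was at 22 and 2 were at 13, and of the 8 genes with 3, none was called at 3 genes. The genes in the rest of this paragraph were chosen after their values were seen. NBPF10 had 3 of its 21 sites among the dipping sites, all called in both, but it belongs to a family of near-identical copies where reads may be misplaced. TOX2, which encodes an HMG-box factor, had 3 dipping sites inside the gene. Of these, peak103351 had 8.77 and 8.51 CPM at 0 h, 1.19 and 1.80 at 6 h, then 6.68 and 6.77 at 72 h, and peak103353 had 5.13 and 4.40, then 1.02 and 1.61, then 5.72 and 6.18. Both were called in both tests, whereas peak103365 was not. Near LTF, which encodes lactoferrin, peak115507 had 4.55 and 3.44 CPM, then 1.11 and 1.17, then 6.03 and 6.75, and peak115506 had 6.69 and 8.80, then 2.64 and 2.72, then 8.02 and 6.47. At NFKB1, which encodes the p105 precursor of an NF-kB subunit, peak127237 inside the gene had 3.90 and 3.20 CPM, then 0.597 and 1.61, then 2.15 and 3.07. Also called in both was peak127228, which lay 22692 bases outside it, at 4.16 and 3.82, then 1.45 and 1.55, then 2.85 and 2.36. ATF7IP2, CD46, CRIM1, NOL4L, NPRL3 and TSPAN5 each had 2 of 2 called in both, whereas AOX1, NR5A2 and UBE2H each had 3 dipping sites and 0 called.

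Dipping sites were mostly distal. Their median width was 632 bases, between 588 for all sites and 879 for sites with peaks in all 6 libraries. Of 2022 that could be placed on the gene table, 119 (5.89%) had a coding gene's end within 1000 bases, against 10.7% of all sites and 31.5% of sites with peaks in all 6 libraries. Gene starts were known for all chromosomes but 8, and 37 of the 1948 dipping sites on those (1.9%) contained the start of a coding gene, against 6.04% and 25.7%. In all, 996 (49.3%) lay inside a protein-coding gene, against 54.5% of all sites, and 620 (30.7%) lay over 50000 bases from any gene end, close to the 30.2% of all sites. Another dipping site lay within 5000 bases of 40 of them, and other sites of the table were often that close. Chromosome 1 held 266 of them, 13.1% of the dipping sites and 11.3% of all sites.

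Within 5000 bases of a dipping site, 2363 other sites were tested, and 45 of these were called in both (1.9%, against 1.92% of all tested sites). Their median dip was 0.20. Of these neighbours, 380 (16.1%) were called lower at 6 h, near the 16.8% of all tested sites, and 341 (14.4%) higher at 72 h than at 6 h, below the 22.1% of all.

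Motifs were searched in the 81 RefSeq promoter windows (300 bases each) that overlapped a dipping site. The windows came from 52 protein-coding and 29 long noncoding RNA entries and covered 71 sites, 12 of them called in both. The promoter table used holds no window on chromosome 8. The GATA motif AGATAA was in 18 of the 81 (22.2%), in 4.75% of the 14865 windows overlapping sites with peaks in all 6 libraries and in 10.3% of all 35116 windows. The GC-rich SP/KLF motif GGGCGG was in 32.1%, against 72.9% and 45.0%, and the NFY motif CCAAT in 22.2%, against 35.5% and 34.6%. The ETS motif CAGGAAG was in 24.7%, against 12.1% and 12.7%. The E-box CAGCTG was in 19.8%, against 16.3% and 17.9%. The AP-1 motif TGACTCA was in 2 windows (2.47%, against 3.65% and 4.95%) and the RUNX motif TGTGGTTT in 3 (3.70%, against 0.915% and 1.53%). No window held the longer ETS motif ACCGGAAG or the CTCF motif, which says only that these letters were not there. The longer ETS motif was in 4.20% and 2.17% of the 2 comparison sets, and the CTCF motif in 0.424% and 0.282%. Both strands were searched. Median GC content was 55.7% in the windows at dipping sites, 66.3% in those at sites with peaks in all 6 libraries and 58.7% over all windows, and its part in the motif shares was not tested. Sequence of the distal sites was not analysed here.

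The peaks that placed sites in the set were weak. The authors' peak lists give each peak a −log10 q-value, and the lowest of the 4 at 0 h and 72 h had a median of 7.31 over dipping sites, 8.50 over sites with a peak in 1 of the 6 h libraries and 23.7 over sites with peaks in all 6. Just inside the rule, peak122927 had a lowest value of 2.35 and read 3.51 and 5.07 CPM at 0 h, 1.96 and 1.36 at 6 h, then 1.79 and 2.15 at 72 h. Just outside it, peak148197 had a 6 h peak with a value of 2.30 and read 4.68 and 4.78 CPM, then 2.47 and 1.55, then 1.99 and 1.44. The pair differed little in level. At the other end, 10 tested dipping sites had a positive log2 change from 0 h to 6 h. Of these, peak38058 inside ST14, which encodes a membrane serine protease, read 3.70 and 2.77 CPM, then 6.40 and 4.52, then 4.79 and 6.70, without a called 6 h peak. Its change by 6 h was 0.73 (SE 0.291; edgeR adjusted p = 0.0497). Another, peak29271 near the mucin gene MUC6, read 3.38 and 4.21 CPM, then 4.69 and 3.67, then 2.02 and 1.77, so its 6 h libraries were not below those at 0 h.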

How the data were processed

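ATAC-seq read counts in K562 cells were taken from a table of 181135 sites and 6 libraries that the authors deposited. The submitters' processing notes name Trim Galore 0.4.3, BWA 0.7.17, SAMtools 1.9, deepTools 3.0.1, MACS2, bedtools 2.26 and DESeq, and the build hg38. How sites were merged and reads counted is not given in the sources used here. Counts were deposited as whole numbers and treated as raw. The same deposited table holds the authors' log2 fold changes against 0 h and an adjusted p-value per site, identical in its 6 h and 72 h columns. The deposited peak lists, 1 for each library, give a score, a fold enrichment and −log10 p and q per peak, and peaks were called per library, as the separate lists show.

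Counts were fitted with edgeR 4.0.16 (R 4.3.3): TMM scaling, a filter at 10 counts, a quasi-likelihood model over the 3 times and Benjamini-Hochberg adjustment. Standard errors are the log2 fold change divided by the square root of F. CPM is the count divided by the TMM-scaled library size. Thinning drew each count binomially at the ratio of totals. The fit was run on simulated data with the same mean at all times, apart from 200 sites lowered at 6 h. Those data held no broad shift between times, so they do not test the scaling. Replicate variation exceeded sampling noise (chi-square per degree of freedom 3.50 to 4.67). Replicates were not paired in the fit. Genes and promoters are from RefSeq GRCh38.p14, matched by position, and site starts were read as counted from 0. Coordinates are printed counted from 1. Named sites were the 12 deepest dips, the 8 deepest at gene ends, those assigned to listed genes, the 3 least deep and those at the edge of the rule. The site at 1 listed gene is not reported here. Members, lists and rules were chosen with earlier results of these data known. Alternatives were other scalings, filters, tools, thresholds, overlaps and each library left out.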

Additional observations from a re-analysis of the deposited data

How the results depend on the processing

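Of 141 values recomputed for counts over the dipping sites, 12 are those reported, 91 stayed within 1.5 times of these and 38 did not. The 652 sites called higher at 72 h than at 6 h became 1016 under total counts, 1421 with TMM factors computed only over sites peaking in every library (shared-peak factors), 409 at an adjusted p of 0.01 and 276 with peaks covering at least 50% of a site, and 393 to 741 with 1 library left out. The 593 called in both became 1009 with the shared-peak factors, 328 at 0.01 and 271 with 50% overlap, and 324 to 617 with 1 library left out. The 478 called in both on thinned counts became 823 with the shared-peak factors, 286 with DESeq2, 253 at 0.01 and 225 with 50% overlap, and 244 to 477 with 1 library left out. The 56 sites with a higher call at 72 h than at 0 h became 36 with RLE factors, 177 under total counts, 30 with loess offsets, 408 with the shared-peak factors, 29 with DESeq2, 33 at 0.01 and 7 with 50% overlap; thinned counts gave 159 under total counts and 33 with RLE factors, and 1 library left out gave 29 to 64. The 1270 called lower at 72 h than at 0 h became 673 under total counts, 309 with the shared-peak factors, 409 with 50% overlap and 592 on thinned total counts, and 880 to 1323 with 1 library left out. The 1666 called lower at 6 h became 545 with 50% overlap, which itself kept 613 of the 2035 sites, and 1229 to 1622 with 1 library left out. With 50% overlap, 612 sites entered the tests. A fall by 6 h was called at 89.1% of these, a later rise at 45.1% and both at 44.3%. The main shares were 81.9%, 32.1% and 29.2%, so these shares rose while the counts shrank. Against 0 h, the 72 h level was called lower at 66.8% and higher at 1.14% (main 62.4% and 2.75%). With 91 reads as the detection count, 67 sites in place of 580 reached it in all 0 h and 72 h libraries. Gene ends within 500 and 5000 bases held 77 and 348 sites in place of 119. The dip of peak97173, at 0.455 and 0.191 CPM at 0 h, was 1.33 and turned to -0.49 without 6 h replicate 1 (highest 2.61, without 72 h replicate 2). The cause of these shifts was not tested, apart from the smaller sets under 50% overlap.

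Deviations of same-numbered replicates correlated at 0.13, 0.08 and 0.12 between times, and at 0.19, 0.08 and 0.07 over the dipping sites. These low values neither show nor exclude pairs. A replicate block gave 615 sites called in both, 524 on thinned counts, 1693 lower at 6 h and 674 higher at 72 h than at 6 h. Without the filter on low counts and with the second thinning seed, the counts of calls stayed within 1.5 times. With 2 libraries at each time and a median of 23 reads per dipping site in 6 h replicate 1, small changes at single sites may have been missed.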

Other observations

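The authors' deposited table gives, against 0 h, a median log2 change of the dipping sites of -1.34 by 6 h and -0.97 by 72 h. In the authors' deposited table, 1688 of the dipping sites (82.9%) have an adjusted p under 0.05, against 57.3% of all sites; the column is the same for 6 h and 72 h, so it belongs to neither time alone. The authors' deposited table also names a class for each site, and 1612 dipping sites are in the class static, 261 in upLate, 84 in downEarly, 58 in upEarly and 20 in downLate. The names did not follow the direction of the fold changes beside them. The 261 dipping sites named upLate have a median of -2.32 at 6 h and -1.79 at 72 h in the authors' deposited table, and the 84 named downEarly have -2.39 and -1.78. Over all sites the 4 classes other than static have like medians in the authors' deposited table, from 0.74 to 0.87 at 6 h. How the classes were made is not given in the sources used here, and they were used for no result.

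Inside gene bodies, SEPTIN9, which encodes a cytoskeletal septin, held 4 dipping sites among its 48 sites and none of the 4 was called in both. CTNNA2, which encodes a catenin of neurons, held 3 among 57, all 3 called in both. Both genes were singled out after their values were seen.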
